A study of Mus musculus with 16 samples.

Results

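The chemokine genes Ccl19, Ccl21a, Ccl21b and Ccl27a, the interleukin-11 receptor genes Il11ra1 and Il11ra2, and Ccr7 were followed in mouse hippocampus. The first 6 lie on chromosome 4 in a stretch of repeated gene copies, and Ccr7, the receptor for CCL19 and CCL21, lies elsewhere. These 7 genes were chosen by the array values of the strain comparison, led by Ccl19, and their array probes were found through the RefSeq transcript given for each probe. The 7 are among 17178 genes named on the array. They had 7 of its 41174 probes, from 5 of the 7 genes: 2 for Ccl19, 2 for Il11ra1 and 1 each for Ccl21a, Ccl27a and Ccr7. No probe carried an accession of Ccl21b or Il11ra2, so neither has a value here.

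Hippocampal RNA of male mice was hybridised to 16 one-colour arrays, 8 for the line SAM/P-8 and 8 for SAM/R-1. SAM, the senescence-accelerated mouse, was bred from AKR/J stock, and P and R mark its prone and resistant lines. Mice aged 8 weeks at the start ate CE-2 rodent diet for 8 weeks, either alone (control) or with 0.1% CCH, coral calcium hydride. The 4 groups were SAM/P-8 control, SAM/P-8 CCH, SAM/R-1 control and SAM/R-1 CCH, with 4 arrays each. Arrays are numbered within a group without a statement that they are separate animals, and p-values therefore cover only the spread among these arrays. Per the file headers every slide carried 1 whole group, so an effect of the slide and an effect of the group cannot be told apart here.

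CCL19 and CCL21 are secreted proteins that bind the receptor CCR7 and guide T cells and mature dendritic cells into lymph nodes. Both are made by stromal cells of lymphoid tissue, and CCL21 also by lymphatic endothelium. CCL27 is a chemokine of the skin that attracts memory T cells through the receptor CCR10, and Il11ra1 encodes the chain that binds interleukin-11 and signals with gp130, the product of Il6st. In mice this stretch of chromosome 4 is known to hold several near-identical Ccl21, Ccl27 and Il11ra copies.

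The promoter windows of these genes show how alike some of the copies are around their annotated starts. They do not show which copies a probe binds. Windows of 300 bases, 250 before and 50 after the annotated start, were found for 6 of the 7 genes in RefSeq (GRCm38.p6). The window of Ccl21a, at chr4:42773942-42774241 on the minus strand, matched that of Ccl21d, at chr4:41903363-41903662 on the plus strand, at 297 of 299 aligned bases. Capitals mark the 2 bases at which they differ.
Ccl21a: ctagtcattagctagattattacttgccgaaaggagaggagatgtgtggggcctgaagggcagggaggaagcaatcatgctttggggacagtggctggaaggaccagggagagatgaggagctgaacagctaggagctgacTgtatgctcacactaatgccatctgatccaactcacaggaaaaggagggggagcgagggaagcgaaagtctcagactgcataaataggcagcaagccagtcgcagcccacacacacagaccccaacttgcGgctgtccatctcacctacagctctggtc
Ccl21d: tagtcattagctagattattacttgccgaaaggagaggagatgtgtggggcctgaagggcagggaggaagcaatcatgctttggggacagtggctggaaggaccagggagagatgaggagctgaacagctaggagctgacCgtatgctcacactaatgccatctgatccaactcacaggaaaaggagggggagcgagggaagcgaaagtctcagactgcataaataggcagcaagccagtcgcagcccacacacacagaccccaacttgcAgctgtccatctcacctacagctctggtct

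One window of Ccl27a, at chr4:41770163-41770462 on the minus strand, matched Ccl27b, at chr4:42655001-42655300 on the plus strand, at 286 of 288 aligned bases. Capitals again mark the 2 differing bases.
Ccl27a: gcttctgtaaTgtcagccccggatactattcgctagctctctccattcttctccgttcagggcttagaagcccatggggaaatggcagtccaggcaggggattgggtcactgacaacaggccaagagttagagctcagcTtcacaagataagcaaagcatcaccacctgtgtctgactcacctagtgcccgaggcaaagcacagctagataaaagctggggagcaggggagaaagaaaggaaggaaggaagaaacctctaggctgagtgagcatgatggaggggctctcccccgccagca
Ccl27b: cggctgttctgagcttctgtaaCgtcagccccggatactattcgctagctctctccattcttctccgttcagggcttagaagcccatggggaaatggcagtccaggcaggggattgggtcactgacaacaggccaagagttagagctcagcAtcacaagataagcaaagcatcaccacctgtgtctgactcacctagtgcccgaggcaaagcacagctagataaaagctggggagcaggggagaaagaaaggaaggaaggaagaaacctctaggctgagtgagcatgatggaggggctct

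The window of Ccl19, the gene with the largest strain difference among the 7, lies at chr4:42756316-42756615 on the minus strand. Over 200 aligned bases it matched the window of Gm12407 at 198. Capitals mark its single match to a GAAA pair, meaning GAAA, any 2 bases and GAAA again, letters shared by sites of interferon-regulated genes.
Ccl19: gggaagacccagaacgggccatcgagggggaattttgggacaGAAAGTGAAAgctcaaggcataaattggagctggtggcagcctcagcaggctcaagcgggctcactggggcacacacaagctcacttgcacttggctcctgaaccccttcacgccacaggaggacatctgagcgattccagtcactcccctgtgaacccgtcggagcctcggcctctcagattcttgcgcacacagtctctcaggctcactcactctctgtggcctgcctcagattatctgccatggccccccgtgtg

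Searched on both strands, the GAAA pair was found in 3.4% of 32851 promoter windows and in no other window of the 7 genes. The letters TATAAA, found in 13.6% of all windows, matched none of theirs, and a kappaB motif, found in 8.5%, matched the Ccl27a window printed above and none of the others. Among the remaining copies, the window of Il11ra2 matched that of Gm13305 at 299 of 299 aligned bases. Ccl21a matched Gm13304 and Gm10591 at 296 of 299 each. The annotated window of Ccl21b did not resemble that of Ccl21a but matched a window of Cntfr at 288 of 288 bases. Motif matches describe these letters only. The array files used here give no probe sequences, so which copies a probe binds was not tested.

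Values are log2 signals minus the 75th percentile of the array, and were compared between arrays for the same probe only. The 6 probes of Ccl19, Ccl21a, Ccl27a and Il11ra1 were well above background on each of the 16 arrays, the Ccr7 probe on 0. The whole series had 28920 to 33333 such spots per array among 43379 non-control spots. A probe was kept if 1 or more groups had it well above background on 4 of 4 arrays, which left 29005. The strain differences of these genes led to their choice and are given as a description, with no p-value and nothing concluded from their calls. The diet differences were tested with limma and adjusted by Benjamini-Hochberg over the 29005 probes.

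**Figure D1:**
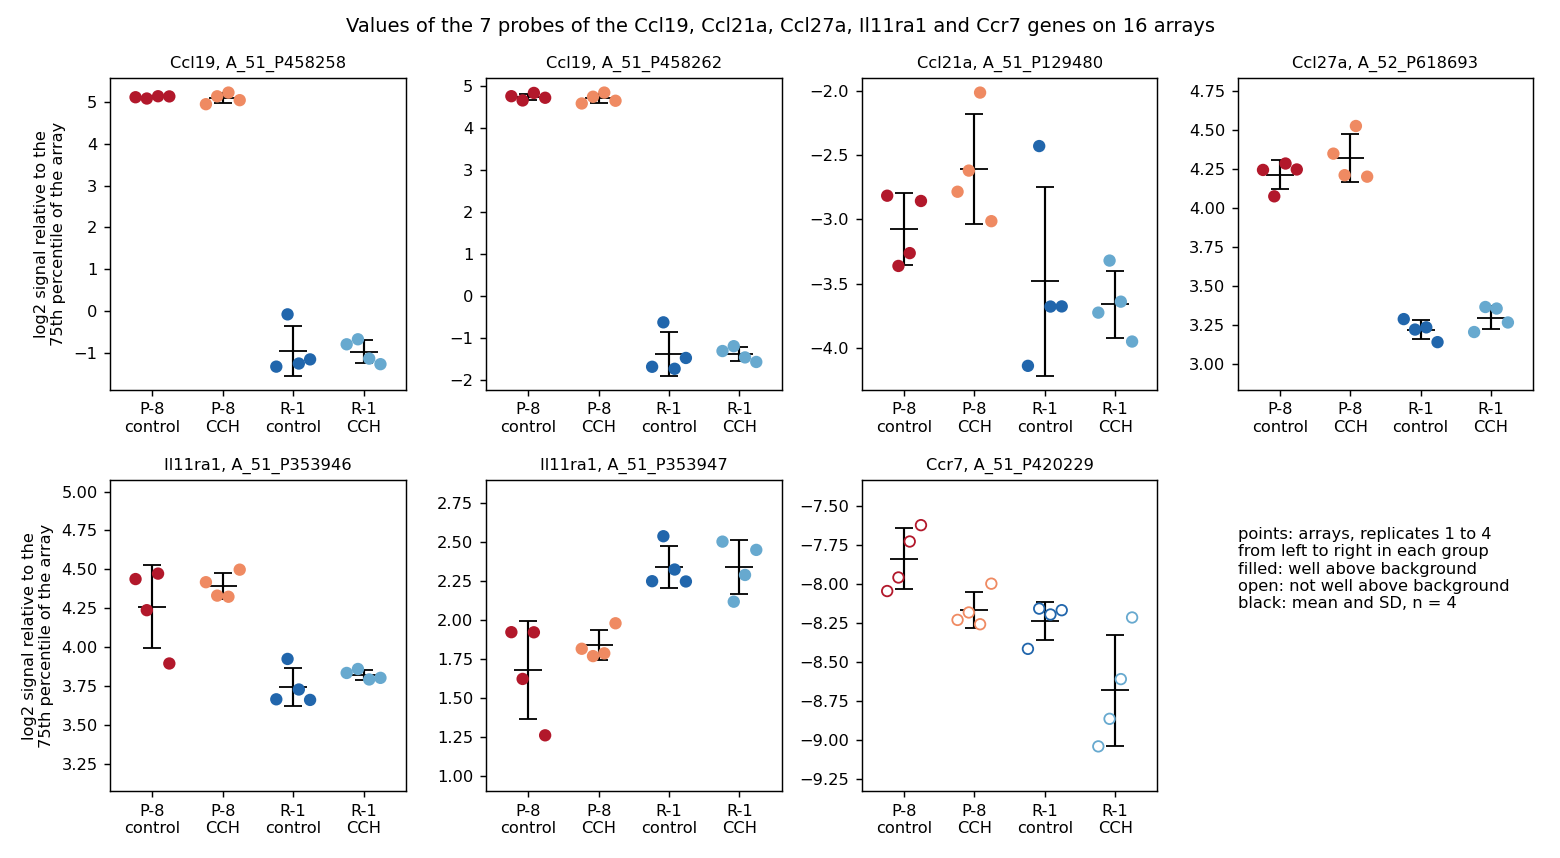
Log2 signal relative to the 75th percentile of the array (y axis) for the 7 probes in the 4 groups (x axis), with 1 point per array and black bars for the mean and SD of 4 arrays. Each Ccl19 probe sits near 5 in SAM/P-8 and near -1 in SAM/R-1, the 2 Il11ra1 probes differ in opposite directions, and all Ccr7 points are open because none was well above background.

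Ccl19 separated the strains widely on both diets, with the higher values in SAM/P-8. Its first probe, A_51_P458258, read 5.11, 5.08, 5.14 and 5.13 in SAM/P-8 control and 4.95, 5.14, 5.22 and 5.04 in SAM/P-8 CCH. It read -1.33, -0.08, -1.25 and -1.15 in SAM/R-1 control and -0.79, -0.67, -1.13 and -1.27 in SAM/R-1 CCH. Every SAM/P-8 array lay above every SAM/R-1 array, and the SAM/R-1 control array with the value of -0.08 lay apart from the other 3 of its group. The difference was 6.07 ± 0.22 (log2, SE, n = 4 and 4) or 67.1-fold on the control diet. On the CCH diet it was 6.05 ± 0.22 or 66.4-fold. Fewer cells of a type and less RNA per cell cannot be told apart in such tissue samples. A strain variant under a probe and a difference in the number of copies bound were not tested for Ccl19, Ccl21a or Ccl27a.

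The second Ccl19 probe, A_51_P458262, showed the same pattern. It read 4.77, 4.66, 4.84 and 4.73 in SAM/P-8 control, 4.59, 4.75, 4.85 and 4.66 in SAM/P-8 CCH, -1.69, -0.63, -1.74 and -1.48 in SAM/R-1 control, and -1.31, -1.20, -1.46 and -1.57 in SAM/R-1 CCH. Again the strains did not overlap, and SAM/R-1 control replicate 2 was the highest SAM/R-1 array. The strain difference was 6.13 ± 0.18 on the control diet and 6.10 ± 0.18 on the CCH diet. The spread within SAM/P-8 was small: over its 8 arrays the SD was 0.08 for the first probe and 0.09 for the second, against 0.43 and 0.35 over the 8 SAM/R-1 arrays.

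Ccl21a, the other CCR7 ligand with a value here, differed less and with overlap. Its probe, A_51_P129480, read -2.81, -3.36, -3.26 and -2.86 in SAM/P-8 control and -2.78, -2.62, -2.01 and -3.01 in SAM/P-8 CCH. It read -4.14, -2.43, -3.68 and -3.68 in SAM/R-1 control and -3.73, -3.32, -3.64 and -3.95 in SAM/R-1 CCH. On the control diet the groups overlapped through SAM/R-1 control replicate 2, which exceeded all 4 SAM/P-8 control arrays. On the CCH diet they did not overlap. The strain difference was 0.41 ± 0.30 on the control diet and 1.05 ± 0.30, or 2.08-fold, on the CCH diet. The first value moved with single arrays: without SAM/R-1 control replicate 2 it was 0.76, and without SAM/R-1 control replicate 1 it was 0.19. With a different background correction (normexp) the differences were 0.14 on the control diet and 0.46 on the CCH diet.

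Ccr7, the receptor of both ligands, gave no measured level in any group. Its probe, A_51_P420229, read between -8.26 and -7.62 in SAM/P-8 and between -9.04 and -8.16 in SAM/R-1, not well above background on any array. The lowest signal of a probe well above background on an array lay between -6.82 and -5.49. No fold is given for Ccr7.

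Ccl27a was about 2 times as high in SAM/P-8. Its probe, A_52_P618693, read 4.24, 4.08, 4.29 and 4.25 in SAM/P-8 control and 4.35, 4.21, 4.53 and 4.20 in SAM/P-8 CCH. It read 3.29, 3.22, 3.23 and 3.14 in SAM/R-1 control and 3.20, 3.36, 3.35 and 3.26 in SAM/R-1 CCH. The strains were separated with no overlap, and within each strain the arrays of the 2 diets overlapped. The difference was 0.99 ± 0.07, or 1.99-fold, on the control diet and 1.03 ± 0.07, or 2.04-fold, on the CCH diet.

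The 2 probes of Il11ra1 went opposite ways between the strains, so no single direction can be given for the gene. The probe A_51_P353946 read 4.44, 4.24, 4.47 and 3.90 in SAM/P-8 control, 4.42, 4.33, 4.32 and 4.50 in SAM/P-8 CCH, 3.67, 3.92, 3.73 and 3.66 in SAM/R-1 control, and 3.83, 3.86, 3.79 and 3.80 in SAM/R-1 CCH. It was higher in SAM/P-8, by 0.52 ± 0.10 on the control diet and 0.57 ± 0.10 on the CCH diet, and SAM/P-8 control replicate 4 fell below the highest SAM/R-1 control array.

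The probe A_51_P353947 read 1.92, 1.62, 1.92 and 1.26 in SAM/P-8 control, 1.82, 1.77, 1.79 and 1.98 in SAM/P-8 CCH, 2.25, 2.54, 2.32 and 2.25 in SAM/R-1 control, and 2.50, 2.12, 2.29 and 2.45 in SAM/R-1 CCH. Here every SAM/P-8 array lay below every SAM/R-1 array. The differences were -0.66 ± 0.13 on the control diet and -0.50 ± 0.13 on the CCH diet. Within an array, the first probe's value minus the second's was 2.52 to 2.64 in SAM/P-8 and 1.33 to 1.74 in SAM/R-1. A strain variant under a probe, an unequal use of transcripts and a difference in the number of copies bound were not tested.

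Of the 6 kept probes, 4 were past the threshold higher in SAM/P-8 and 1 lower on the control diet, where 6.01% of all 29005 probes were higher and 7.87% lower. On the CCH diet 5 were higher and 1 lower, where 6.45% of all probes were higher and 7.36% lower. These contrasts chose the genes, so nothing is read from the counts, nor from the calls under alternatives and the medians that follow. Leaving out single arrays gave 5 to 6 probes past the threshold on the control diet and 4 to 6 on the CCH diet. On the CCH diet Ccl21a was past it under 16 of 23 alternatives and the Il11ra1 probe A_51_P353947 under 19 of 23. The median difference of the 6 probes was 0.76 on the control diet and 1.04 on the CCH diet, against -0.02 for all probes on each diet.

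The strain comparison chose the genes, so the diet differences could be tested, and no probe of these genes passed. In limma, 0 of the 6 probes passed in SAM/P-8, in SAM/R-1, in the average over the strains or in the strain by diet interaction, and 0 had an unadjusted p under 0.05 in any of them. In SAM/P-8, 0.500% of all probes rose and 0.428% fell on CCH. In SAM/R-1 it was 0.00690% and 0.110%, for the average 2.09% and 2.33%, and for the interaction 0.131% and 0.0379%. The smallest adjusted p of the 6 probes in limma was 0.415 in SAM/P-8, 0.739 in SAM/R-1, 0.291 for the average and 0.936 for the interaction.

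The intervals say how large a diet difference could have been missed if the spread of a probe is the same in the 4 groups. For the first Ccl19 probe, CCH minus control was -0.03 in SAM/P-8 with a 95% confidence interval from -0.49 to 0.44, and -0.01 in SAM/R-1 with an interval from -0.48 to 0.45. The SD of this probe was 0.03 and 0.12 in SAM/P-8 control and CCH, and 0.59 and 0.28 in SAM/R-1 control and CCH. The shared spread is therefore wider than that of the SAM/P-8 arrays themselves. By these intervals Ccl27a was the most tightly bounded, with 0.11 (-0.05 to 0.27) in SAM/P-8 and 0.08 (-0.08 to 0.23) in SAM/R-1. Ccl21a had the widest intervals, with 0.47 (-0.18 to 1.12) in SAM/P-8 and -0.18 (-0.83 to 0.47) in SAM/R-1. The Ccl21a difference in SAM/R-1 was 0.17 without SAM/R-1 control replicate 2, and its interaction was 0.65 (-0.28 to 1.57). For Il11ra1 the differences lay between 0.00 and 0.16 over both probes and both strains.

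**Figure D2:**
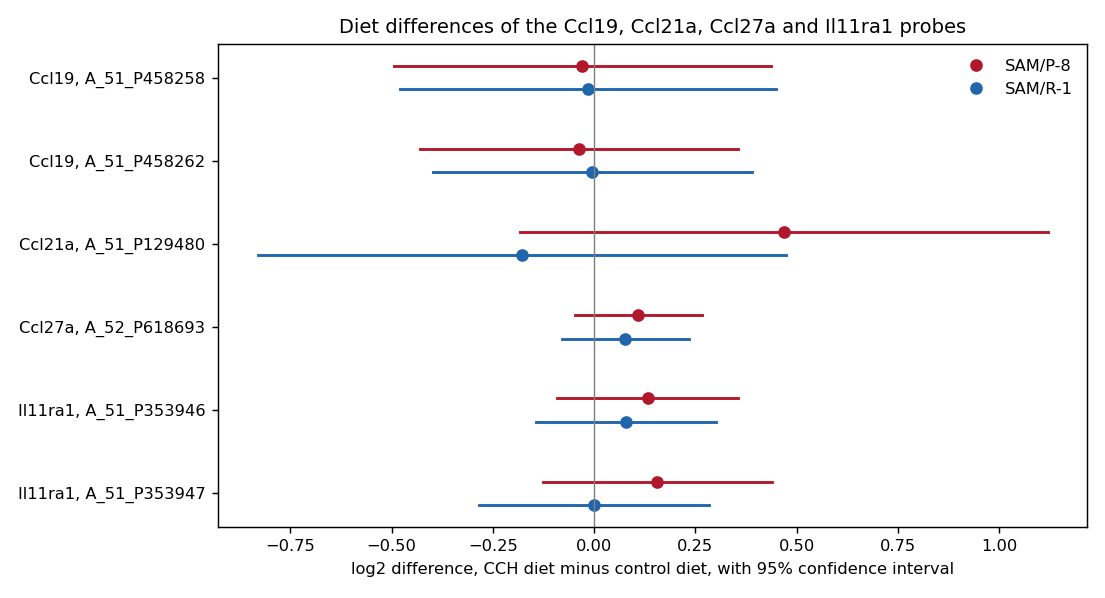
Difference between the CCH and the control diet (x axis, log2, CCH minus control) for the 6 kept probes (y axis) in SAM/P-8 (red) and SAM/R-1 (blue), with 95% confidence intervals from limma, n = 4 and 4. All 12 intervals hold 0, and those of Ccl21a are the widest.

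Within SAM/R-1, arrays with more Ccl19 also had more Ccl21a, but this rested on few arrays. Over its 8 arrays, Pearson's r between the first Ccl19 probe and Ccl21a was 0.932 (exact permutation p = 0.00181, adjusted over 8 relations 0.0145). Spearman's rho was 0.857 (exact permutation p = 0.0107, adjusted 0.0857). Without the 2 arrays farthest from the median of Ccl19, r was 0.491. In SAM/P-8 the same r was 0.444 (exact permutation p = 0.261, adjusted 0.606). The 8 relations were Ccl19 against 4 other probes in each strain.

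Against the Il11ra1 probe A_51_P353946, r in SAM/R-1 was 0.83 (exact permutation p = 0.00603, adjusted 0.0241) and rho 0.762 (exact permutation p = 0.0368, adjusted 0.147), and r was 0.594 without the 2 farthest arrays. The other 5 relations had adjusted permutation p of 0.606 or more for r. The 4 arrays of a diet are too few for a value within a slide, and values of 1 array share its scaling.

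**Figure D3:**
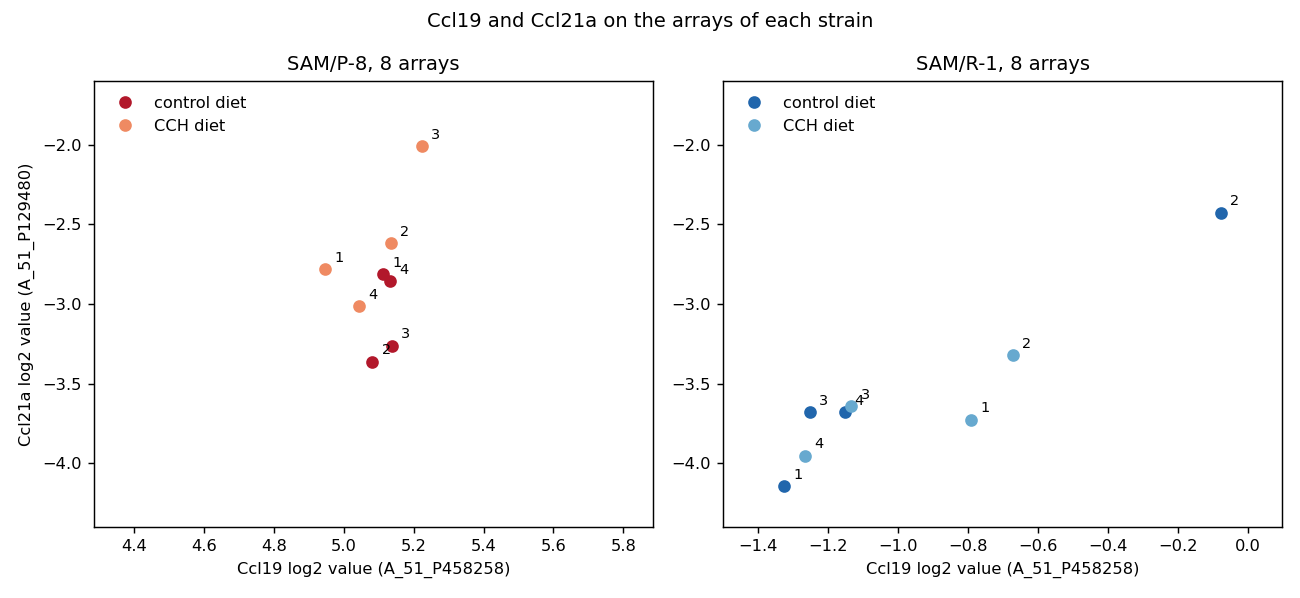
Ccl21a (y axis) against Ccl19 (x axis), both as log2 signal relative to the 75th percentile of the array, on the 8 arrays of SAM/P-8 (left) and SAM/R-1 (right), coloured by diet and numbered by replicate. The x axes span the same width but different values, and SAM/R-1 control replicate 2 sits alone at the upper right with -0.08 and -2.43.

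The array that stood apart also had the highest scores of its group for several marker lists, those of meninges, choroid plexus, vessels and astrocytes. A marker score is the mean over a list of each gene's log2 value minus its mean over the 16 arrays. In SAM/R-1 control replicate 2 the score of 8 meningeal fibroblast genes was 0.16, while the rest of the group had -0.59 to -0.37. The score of 2 measured lymphatic endothelium genes was 0.22 there and -0.73 to -0.46 on the rest, and that of 5 choroid plexus genes was 1.58 there and -1.25 to 1.02 on the rest. SAM/P-8 control replicate 2 had a higher choroid plexus score, 1.88, and SAM/P-8 control replicate 1 had the highest meningeal score of all arrays, 0.85. SAM/P-8 CCH replicate 3, the array with the highest Ccl21a, had scores of 0.11, 0.09 and -3.35 for the meningeal, lymphatic and choroid plexus lists. In SAM/R-1 control replicate 2 the scores were also -0.18 for blood endothelium, -0.21 for pericytes and 0.05 for astrocytes. The other arrays of that group had -0.51 to -0.21, -0.32 to -0.24 and -0.11 to -0.05. The part of these lists in the Ccl19 and Ccl21a values was not tested.

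Markers of the cells that carry CCR7 or make its ligands were detected in part. Of 10 T cell genes with a probe, 5 were well above background on all 16 arrays, among them Cd3e, while Cd3g and Cd8a were on 0. Of 6 B cell genes, 0 were on all 16 arrays and Blk on 0. Of 5 dendritic cell genes, 3 were on all 16, and Cd209a on 0. Of 3 lymphatic endothelium genes, Pdpn was on all 16, Lyve1 on 11 and Flt4, the receptor that defines these vessels, on 0. Markers of hippocampal neurons were on all 16 arrays for 6 of 6 genes with a probe. SAM/P-8 CCH replicate 4 had a striatal neuron score of 3.97, while the other arrays had -0.95 to 0.31. Its hippocampal neuron score, -0.51, was the lowest of all arrays. It enters the diet comparison of SAM/P-8 and the strain comparison on the CCH diet. The part of striatal tissue in its values was not tested.

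Some of these lists also differed between the strains. Of 5 pericyte genes, 4 were higher in SAM/P-8 on each diet, such as Rgs5 (0.92 ± 0.10, limma adjusted p = 1.81e-05, on the control diet). Their score was 0.04 to 0.45 on the SAM/P-8 arrays and -0.32 to -0.14 on the SAM/R-1 arrays. Of 6 blood endothelium genes, 5 were higher on the control diet and 1 on the CCH diet. Of all kept probes 6.01% were higher on the control diet and 6.45% on the CCH diet. Of 5 measured T cell genes, 1 was lower in SAM/P-8 on the control diet, where 7.87% of all kept probes were lower, and 0 passed on the CCH diet. The 1 was Cd3e, a chain of the T cell receptor complex (-1.05 ± 0.23, limma adjusted p = 0.00686), and the median of the 5 was -0.08. Cd3e was also lower on CCH on average over the strains (-0.75 ± 0.16, limma adjusted p = 0.0284). The dendritic cell gene Itgax was higher in SAM/P-8 on both diets (limma adjusted p = 2.36e-05 and 0.000248). It was well above background on 10 of the 16 arrays, so no size is given, and the filter may have favoured both calls. Cd83, another dendritic cell gene, was lower on both, by -0.27 ± 0.08 on the control diet (limma adjusted p = 0.0350) and -0.36 ± 0.08 on the CCH diet (limma adjusted p = 0.00750). Lyve1, a hyaluronan receptor listed here for lymphatic endothelium, was higher in SAM/P-8 on the control diet (limma adjusted p = 0.0439). It was well above background on 11 of the 16 arrays, so again no size is given, and the filter may have favoured the call. Flt4 of the same list was well above background on 0 arrays. Of 8 meningeal genes, 1 was higher on the CCH diet, Col3a1 (1.13 ± 0.35, limma adjusted p = 0.0453). Of 5 microglia genes, 1 passed on the control diet and 2 on the CCH diet, all higher in SAM/P-8. These were Itgam (0.25 ± 0.08 and 0.43 ± 0.08) and, on the CCH diet, Aif1 (0.33 ± 0.08). Of 4 astrocyte genes, 1 passed on each diet, Gfap, higher in SAM/P-8 by 0.34 ± 0.09 and 0.49 ± 0.09. Their part in the strain difference of Ccl19 was not tested.

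Neighbouring genes on chromosome 4 differed between the strains in both directions. Of 144 annotated genes within 1 megabase of the 6, 45 lie between Ccl27a and Ccl19 and 0 of these 45 had a probe. Among the rest, 43 genes other than the 6 had a kept probe. By the brightest probe of each, 7 were higher and 7 lower in SAM/P-8 on the control diet, and 9 and 7 on the CCH diet. Of all kept probes 6.01% were higher and 7.87% lower on the control diet, and 6.45% and 7.36% on the CCH diet. The medians over the 43 genes were -0.03 and -0.05, against -0.02 for all probes on each diet. With the normexp background correction, 8 and 9 genes passed in place of 14 and 16.

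Shortly before Il11ra1 in gene order, the adjacent genes Rpp25l and Dctn3 were higher in SAM/P-8. Rpp25l, which encodes an RNA-binding protein, differed by 0.96 ± 0.06 on the control diet (limma adjusted p = 4.17e-08), and its other probe by 0.79. Dctn3, a subunit of the dynactin motor complex, differed by 1.13 ± 0.05 (limma adjusted p = 1.69e-09). With CCH the differences were 0.96 for Rpp25l and 1.10 for Dctn3, and both passed. Galt, an enzyme of galactose use that lies between Dctn3 and Il11ra1, differed by -0.17 ± 0.06 and did not pass (limma adjusted p = 0.0690).

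Beyond Ccl21a, Phf24 had 2 probes that disagreed. The dimmer probe differed by -1.41 ± 0.09 on the control diet (limma adjusted p = 5.06e-08) and the brighter by 0.00 ± 0.09 (adjusted p = 0.984). Further on, Vcp, an ATPase that extracts proteins for degradation, was higher by 0.46, with 0.17 by its other probe, and Fancg, a gene of DNA crosslink repair, was lower by 0.70 (-0.70 ± 0.11). Hint2, a mitochondrial hydrolase, differed by -0.60 on each diet. Creb3, a membrane-bound transcription factor, also had probes that passed in opposite directions (-0.29 and 0.35 on the control diet). For Cd72, a B cell coreceptor, SAM/P-8 exceeded SAM/R-1 by at least 2.24-fold on the CCH diet (limma adjusted p = 0.000151). There 0 of 4 SAM/R-1 arrays were well above background, and the probe was kept only through SAM/P-8 CCH. It was highest in that group, so the filter favoured the call. That call ended with the normexp correction, as did those of Fancg on both diets.

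Other neighbours that passed were further away or differed by less. Chmp5, Fam219a and Fam221b were higher on both diets, by 0.23 to 0.54 on the control diet. Fam221b was kept only through SAM/P-8 CCH, so the filter favoured its call on that diet. It was well above background on 3 SAM/P-8 and 2 SAM/R-1 control arrays. With normexp it differed by 0.03 on the control diet and turned to -0.21 on the CCH diet, with both calls lost. Of 2 Tpm2 probes kept, 1 passed on the control diet (0.95, limma adjusted p = 0.0496). Ccdc107 was higher by 0.20 on the CCH diet. Dnaic1, Gba2 and Npr2 were lower on both, by -0.49 to -0.30 on the control diet. Rgp1 had probes of opposite sign on the CCH diet (-0.20 and 0.85, both past the threshold). Sit1, a lymphocyte membrane adaptor, was lower on the control diet (-0.71 ± 0.13, limma adjusted p = 0.00181), and with normexp it differed by -0.32 and did not pass (adjusted p = 0.949). Normexp also ended the calls of Fam219a and Gba2 on both diets, of Chmp5 on the control diet, and of Ccdc107 and the lower Rgp1 probe on the CCH diet. Those of Fam219a on the control diet and of Fancg, Ccdc107 and that Rgp1 probe on the CCH diet were also lost on leaving out single arrays.

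**Figure D4:**
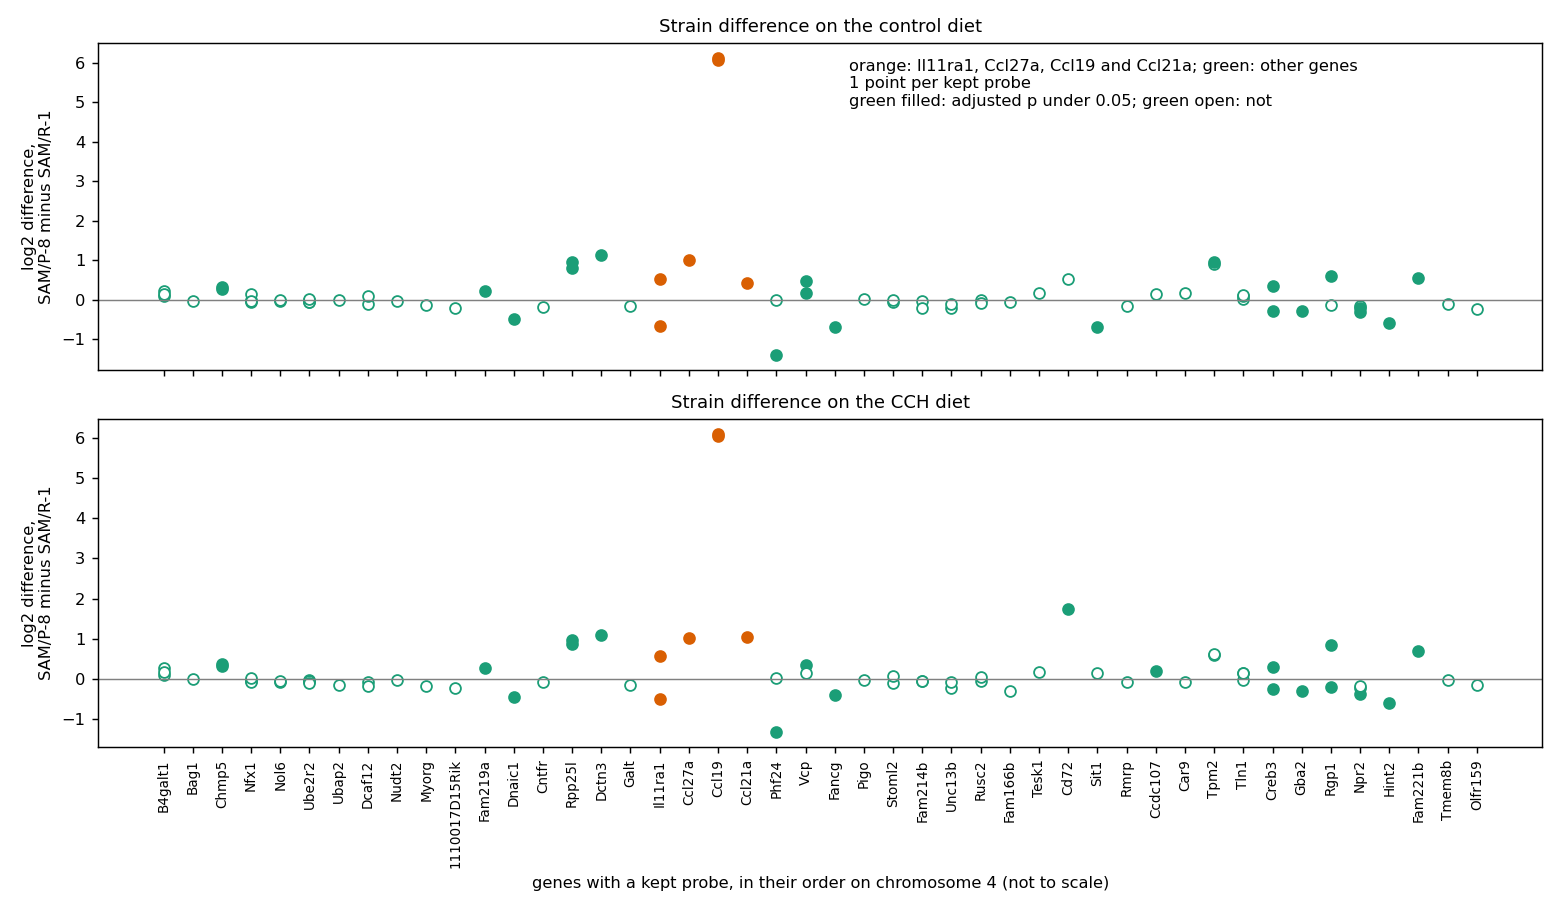
Strain difference (y axis, log2, SAM/P-8 minus SAM/R-1) of kept probes within 1 megabase of the 6 chromosome 4 genes, without 1 gene that is not reported, in gene order and not to scale (x axis), on the control diet (upper) and the CCH diet (lower). The Ccl19 points stand near 6 on both diets, Rpp25l and Dctn3 stand between 0.79 and 1.13, and filled green points pass the test.

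A few neighbours also differed between the diets. Sit1 was lower on CCH in SAM/R-1 (-0.92 ± 0.13, limma adjusted p = 0.0139) and on average over the strains (-0.49 ± 0.09, limma adjusted p = 0.0168). Its values were dim, at -5.66 to -5.05 on CCH and -4.46 to -4.36 on the control diet in SAM/R-1. With the normexp correction both differences turned positive, and without SAM/R-1 control replicate 3 the first did not pass (adjusted p = 0.0685). On average over the strains Vcp was lower by -0.17 ± 0.04 (limma adjusted p = 0.0316), its other probe by -0.01, and Car9, a carbonic anhydrase, by -0.31 ± 0.07 (limma adjusted p = 0.0329). The normexp correction ended both calls and turned the sign of Car9, and each call was also lost on leaving out single arrays of any of the 4 groups. No neighbour passed in SAM/P-8 or in the interaction in limma, where 5 had an unadjusted p under 0.05 in SAM/P-8.

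Other chemokine ligands differed between the strains in both directions. Of 35 listed, 18 were measured. Of these, 3 were higher and 3 lower in SAM/P-8 on the control diet, and 4 and 3 on the CCH diet. The shares of all kept probes were 6.01% and 7.87% on the control diet, and 6.45% and 7.36% on the CCH diet. On the control diet Ccl12, an attractant of monocytes, was higher by 0.99 ± 0.26 (limma adjusted p = 0.0198), a call lost without SAM/P-8 control replicate 2 or SAM/R-1 control replicate 4. Cxcl12, which guides migrating neurons and blood stem cells, was higher by 0.85 ± 0.16 (limma adjusted p = 0.00182), but its other probe gave 0.02. Ccl17, a ligand of CCR4, was lower by -0.94 ± 0.09 (limma adjusted p = 2.85e-06), with every SAM/P-8 array of that diet below every SAM/R-1 array. Ccl9 was lower by -0.80 ± 0.10 (limma adjusted p = 4.65e-05).

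Fed CCH, the strains differed in Cxcl10, an interferon-induced attractant of T cells, higher in SAM/P-8 by 1.74 ± 0.55 (limma adjusted p = 0.0481). Without SAM/P-8 CCH replicate 4 that difference was 1.05 and did not pass, and the call was lost under quantile normalization too. Ccl28, a ligand of CCR10 like CCL27, was at least 2.39-fold higher (limma adjusted p = 0.00691), and its probe cleared background on 2 of 4 SAM/R-1 arrays. Ccl12 was at least 2.00-fold higher, with 3 of 4 (limma adjusted p = 0.00859), and Ccl9 was lower by -0.94 ± 0.10 (limma adjusted p = 9.71e-06). The Ccl28 probe met the filter only through SAM/P-8 CCH, the group in which its mean was highest, so the filter favoured its call. The median over the 18 ligands was 0.22 on the control diet and 0.03 on the CCH diet. With normexp, 2 and 1 of the 18 passed, and Ccl12, Ccl28, Ccl9 and Cxcl10 were not among them.

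In the diet comparisons none of the 18 ligands passed in limma, and 4 had an unadjusted p under 0.05 in SAM/P-8, 3 in SAM/R-1 and 5 on average. The smallest p in SAM/P-8 belonged to Ccl6 (-0.29 ± 0.09, adjusted p = 0.122) and Ccl9 (-0.24 ± 0.10, adjusted p = 0.201), by limma. In SAM/R-1 they belonged to Ccl4, well above background on 1 of 4 control arrays (limma adjusted p = 0.276), and Ccl17 (-0.25 ± 0.09, limma adjusted p = 0.315).

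Among chemokine receptors the decoy receptor Ackr1 was lower on CCH. Of 23 listed, 10 were measured. Ackr1, which binds inflammatory chemokines on venules and red cells without signalling, read 0.73 to 1.11 in SAM/P-8 control and 0.42 to 0.60 in SAM/P-8 CCH, with no overlap. It fell by 0.41 on the log2 scale (-0.41 ± 0.08, limma adjusted p = 0.0376), and its other probe by 0.46 (-0.46 ± 0.09, limma adjusted p = 0.0339). On average over the strains it was lower by -0.27 ± 0.06 (limma adjusted p = 0.0264), and its interaction did not pass (-0.28 ± 0.12, limma adjusted p = 0.836). The call in SAM/P-8 was close to the threshold: it ended under quantile normalization (adjusted p = 0.0506), normexp (0.181), no filter on dim probes (0.0635), the replicate number as a block (0.0615), the compared groups alone (0.185) and on leaving out any 1 of 6 arrays (differences of -0.44 to -0.39). These were SAM/P-8 CCH replicates 1, 3 and 4, SAM/P-8 control replicates 2 and 3, and SAM/R-1 CCH replicate 4. The call on average was lost without any 1 of SAM/P-8 CCH replicate 1, replicate 3 of either control group, or SAM/R-1 CCH replicates 1 and 4, at adjusted p of 0.0501 to 0.0579.

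Between the strains, none of the 10 measured receptors passed in limma on the control diet, Ackr1 included, and 1 of the 10 passed on the CCH diet. That was Cx3cr1, the fractalkine receptor of microglia, higher in SAM/P-8 by 0.29 ± 0.08 (limma adjusted p = 0.0230), with 0.21 by its other probe. It did not pass with normexp, nor without SAM/P-8 CCH replicate 4 or SAM/R-1 CCH replicates 2 or 4. On the control diet the smallest p belonged to Ccr9, well above background on 2 of 4 SAM/P-8 arrays (limma adjusted p = 0.201), and Cxcr4 (-0.51 ± 0.29, limma adjusted p = 0.269). Of all kept probes 6.01% were higher and 7.87% lower on the control diet, and 6.45% and 7.36% on the CCH diet.

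Of 20 genes of interleukin-6 and interleukin-11 family signalling, 16 were measured, and on the control diet 2 were higher and 2 lower in SAM/P-8. The shares of all kept probes on that diet were 6.01% and 7.87%. Osmr, the receptor chain for oncostatin M, was higher by 0.90 ± 0.16 (limma adjusted p = 0.00145). Il6st, the shared chain gp130 with which the product of Il11ra1 signals, was higher by 0.18 ± 0.06 (limma adjusted p = 0.0487). It did not pass with quantile normalization or with the replicate number as a block. Ebi3 was lower by -0.41 ± 0.09 (limma adjusted p = 0.00525) and its partner Il27 by -0.29 ± 0.06 (limma adjusted p = 0.00588). Ebi3 was on the CCH diet the 1 gene of the 16 that passed (-0.47 ± 0.09, limma adjusted p = 0.00240), where 6.45% of all kept probes were higher and 7.36% lower. The medians over the 16 genes were -0.03 and 0.00. None of these 4 control-diet calls held with normexp.

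For diet, none of the 16 passed in limma, with 3 at an unadjusted p under 0.05 in SAM/P-8, 2 in SAM/R-1 and 3 on average. In SAM/P-8 Osmr had the smallest p (-0.43 ± 0.16, limma adjusted p = 0.171).

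Of 12 genes that organise lymphoid tissue, such as those of lymphotoxin signalling, 10 were measured. Of these, 1 was higher and 0 lower in SAM/P-8 on the control diet, and 1 and 1 on the CCH diet. The shares of all kept probes were 6.01% and 7.87% on the control diet, and 6.45% and 7.36% on the CCH diet. For Icam1, an adhesion molecule of activated endothelium, SAM/P-8 exceeded SAM/R-1 by at least 2.11-fold on the control diet, where 1 of 4 SAM/R-1 arrays was well above background (limma adjusted p = 0.00690). With CCH it was at least 2.41-fold higher, with 2 of 4 (limma adjusted p = 0.0126). Its probe was kept only through the SAM/P-8 groups, so the filter favoured both calls. Lta, which encodes lymphotoxin alpha, was lower on the CCH diet (-0.43 ± 0.13, limma adjusted p = 0.0346), a call lost without any 1 of 6 of the 8 arrays of that diet. None of these calls held with normexp. No gene of this list passed for diet in limma, where 1 in SAM/P-8, 0 in SAM/R-1 and 3 on average had an unadjusted p under 0.05. Relb had the smallest p on average (-0.16 ± 0.05, limma adjusted p = 0.0745).

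The genes whose pattern was most like that of Ccl19 lay mostly on other chromosomes. Over the 16 arrays, and among 13456 genes each taken by its brightest probe, Pearson's r with the first Ccl19 probe was highest for Zfp606 on chromosome 7 (0.996). It was followed by Zfp429 on chromosome 13 (0.993), Rpusd4 on chromosome 9 (0.993), 2610301B20Rik on chromosome 4 (0.993) and Tmem167b on chromosome 3 (0.993). Zfp606 and Zfp429 encode zinc finger proteins. All of these were higher in SAM/P-8 by 1.04 to 2.62 on the control diet, less than Ccl19. The 16 points form a cluster for each strain, share the scaling of their array and lie on 4 slides of 1 group, so these values describe the strain gap and carry no p.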

How the data were processed

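Each deposited array file gives a processed intensity per spot. Per the file headers it comes from Agilent Feature Extraction 9.5.3.1, with background subtraction and detrending done inside the array. The median intensity of spot and local background is given beside it, with flags of another kind (well above background, non-uniform, outlier, saturated), per the file headers. The authors' deposited value table is on a log2 scale, centred per probe over the arrays. Set against centred scanner values it correlated at 0.9998 or more on every array, with column medians from -0.038 to 0.037. It served as an alternative.

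Over all arrays 187 non-uniform spots and 1445 further population outliers were left out, and 2 spots were saturated. Signals were taken as log2, spots of a probe averaged, and the array's 75th percentile over non-control probes subtracted. Through RefSeq accessions 24844 probes received a name and 16330 did not. The array design names build mm9 in the file headers and the name table is GRCm38.p6, which served for names, gene order and promoters. limma 3.58.1 in R 4.3.3 fitted 4 group means over 16 arrays (12 residual degrees of freedom, threshold 0.05). The fit was tested on simulated data.

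The genes and lists were chosen with earlier results of these data known. Named were all probes of the 7 genes, neighbours past the threshold by any probe, the 5 most similar patterns, and per list up to 4 genes past the threshold or the 2 of smallest p; 2 genes that this rule names are counted but not reported by name here. Galt lies outside the rule and was named after its values were seen. Where the lower group had under 4 arrays well above background, the fold is given as a bound, with values under the faintest detectable signal of their array raised to it. The alternatives were quantile normalization, normexp, both other filters on dim probes, the authors' table, the replicate number as a block, the compared groups alone and leaving out each array. The number of arrays limits the precision.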

Additional observations from a re-analysis of the deposited data

Results flagged for a closer look

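Among 28 sets of 4 arrays (7 probes in 4 groups), 2 held an array whose gap to its nearest neighbour was large for the range of its group, where chance gives about 1 in 20. In SAM/R-1 control, replicate 2 read -0.077 for the Ccl19 probe A_51_P458258, while the other 3 arrays lay between -1.33 and -1.15. In the same group, replicate 1 read -8.42 for the Ccr7 probe A_51_P420229, a probe without any array well above background, while the other 3 lay between -8.20 and -8.16.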

How the results depend on the processing

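The diet and interaction tests of the 6 kept probes stayed on the same side of the threshold under every alternative run. Of their strain differences, the second Ccl19 probe (5.79) and Ccl21a (0.46) moved by more than the spread between replicates, both on the CCH diet with normexp. Counts over all probes moved further. With normexp 968 probes passed for the strain difference on the control diet (4026 in the main setting), 851 on the CCH diet (4006), 0 for CCH in SAM/P-8 (269), 0 in SAM/R-1 (34), 147 for the average (1283) and 0 for the interaction (49). For CCH in SAM/P-8 it was 136 with quantile normalization, 153 with no filter on dim probes, 158 with the replicate block and 28 with the compared groups alone. For CCH in SAM/R-1 it was 18 with probes well above background on all 16 arrays and 19 with the replicate block. For the average it was 3959 with no filter, and for the interaction 19 with the filter on all 16 arrays. Leaving out each array gave 2997 to 4568, 2878 to 4210, 66 to 465, 2 to 48, 313 to 2180 and 35 to 56 in the same order of comparisons. Signs turned with normexp for Fam221b on the CCH diet (-0.21), for Sit1 on CCH in SAM/R-1 (0.12) and on average (0.15), and for Car9 on average (0.19). The cause was not tested. Normexp moved the median of all probes for CCH in SAM/R-1 from -0.01 to 0.10. Quantile normalization moved the share of higher calls from 5.88% to 34.9% for CCH in SAM/R-1 and from 77.6% to 60.6% for the interaction. The deviations of same-numbered arrays from their group means correlated over 0.1 in 6 of 24 pairs of arrays (-0.25 to 0.30), so the numbers were not taken as a pairing. A slide block was not run because each slide held 1 group.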
